A study of Mus musculus with 45 samples.

Results

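Dppa2, Dppa3, Dppa4, Dppa5a and Fbxo15 are 5 genes that mark mouse pluripotent cells and are among those switched on during reprogramming. They were taken by name from a gene table of 23575 genes, where each has 1 row, together with their 106 deposited transcripts. The genes were followed in 45 long-read libraries of mouse neural progenitor cells during conversion to induced pluripotent stem cells, and of embryonic stem cells.

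Dppa2 and Dppa4 are DNA-binding proteins with a SAP domain that form a complex on chromatin. They are known as activators of genes of the 2-cell embryo and as keepers of developmental promoters in a state low in DNA methylation. Dppa3, also called Stella, is a maternal factor that binds Uhrf1, a partner of the maintenance DNA methyltransferase, and limits DNA methylation in oocytes and naive pluripotent cells. Dppa5a, also called Esg1, is a small RNA-binding protein with a KH domain that is abundant in embryonic stem cells. Fbxo15 is an F-box protein, the substrate-binding part of an SCF ubiquitin ligase. It is a known target of Oct4 and Sox2, and its locus served as the reporter in early reprogramming work.

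The progenitors came from embryonic stem cells that carry GFP under the Oct4 promoter (line O4G, made from the R1 line) and were stably transfected. Their genotypes are given as OKMS-Luciferase-AS, OKS-Luciferase-AS or WT. OKMS and OKS are named for Oct4, Klf4 and Sox2, with Myc in OKMS, and doxycycline induces the factors; the labels do not describe the luciferase element. Induced cells were kept in FBS-LIF with doxycycline, a medium of fetal bovine serum and the cytokine LIF. Others were moved to 2i-LIF, serum-free N2B27 with LIF, CHIR-99021 and PD0325901. That move was at day 6 for the R9 libraries of days 14 and 20, and the labels give no day of the move for the R10 libraries of day 18. Wild-type embryonic stem cells (O4G, R1 and R1-Clone3, the latter named as a clone) were in 2i-LIF. Every induced culture, and every wild-type progenitor culture, came from the O4G background.

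For the 22 R9 libraries poly(A)-enriched RNA was turned into cDNA and sequenced without PCR, whereas the 23 R10 libraries used total RNA and PCR. Progenitors gave 4 R9 and 4 R10 libraries, and stem cells gave 2 R9 and 7 R10 libraries. In FBS-LIF with doxycycline, R9 sampled both systems at days 2, 4, 6, 10, 14 and 20. R10 sampled OKMS at days 2, 4, 6, 10 and 18 and OKS at days 2, 6 and 18. Each of these time points is a single library. In 2i-LIF there were R9 libraries of OKMS at days 14 and 20 and of OKS at day 20, and R10 libraries of both systems at day 18. Wild-type cells were sequenced after 2 days in the induction medium, in 1 R9 and 2 R10 libraries.

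Depth was 447990 to 1390424 reads in R9 and 566599 to 4236442 in R10. One of the 3 R10 libraries of R1 stem cells carries no n number and stood apart from the other R10 stem cell libraries. Its share of mitochondrial reads was 0.124%, the lowest of all. Where it sets the end of a range of the 5 genes below, the value without it is given, and for marker sums it is named. Summed neural progenitor markers (8 genes) were 4010 to 5253 CPM in the R10 progenitors and 5.45 to 38.8 CPM in the R10 stem cells. The 38.8 CPM was in the R1 library that lacks an n number, and the stem cell median was 10.1 CPM. Sox1, a defining marker, was however at 0 in every progenitor library of both kinds. The labels do not say whether replicates were separate cultures, so p-values measure only the spread between these libraries. Nor do they say whether R9 and R10 libraries of a condition share RNA, so the 2 kinds may not be independent repeats. Levels are gene CPM (reads scaled to a fixed library total), and differences are in log2(CPM + 1), which understates the change of low genes.

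In GENCODE M21 (GRCm38), Dppa4 (chr16:48283733-48294237, + strand) and Dppa2 (chr16:48303908-48319723, + strand) are neighbours. Dppa3 (chr6:122626410-122630272, + strand) lies between Gdf3 and Nanog. Dppa5a (chr9:78367052-78368177, − strand) lies downstream of Ooep on the same strand. The position of Fbxo15 is given with its neighbour Timm21. The deposited transcripts of all 5 genes overlapped their annotated positions on the same strand.

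Dppa5a has near-identical copies, Dppa5b and Dppa5c, both annotated as unprocessed pseudogenes, so its reads could in principle be shared among 3 places. The joined coding parts of the first 2 exons of Dppa5a (298 of 357 coding bases, chr9:78367721-78368099, − strand) are shown beside the same stretch of Dppa5b (295 bases, chr9:78245550-78245927, + strand), to show where they differ. Bases outside this stretch may also separate their reads and are not shown. Capitals mark letters that differ or have no partner in the other sequence, and Dppa5c equals Dppa5b over all 348 exon bases.
Dppa5a: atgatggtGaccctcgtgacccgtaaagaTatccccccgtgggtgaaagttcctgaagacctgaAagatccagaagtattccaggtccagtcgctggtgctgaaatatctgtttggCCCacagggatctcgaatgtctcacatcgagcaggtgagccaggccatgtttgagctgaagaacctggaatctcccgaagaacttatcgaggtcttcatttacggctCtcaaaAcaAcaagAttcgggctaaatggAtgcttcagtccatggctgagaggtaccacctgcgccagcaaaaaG
Dppa5b: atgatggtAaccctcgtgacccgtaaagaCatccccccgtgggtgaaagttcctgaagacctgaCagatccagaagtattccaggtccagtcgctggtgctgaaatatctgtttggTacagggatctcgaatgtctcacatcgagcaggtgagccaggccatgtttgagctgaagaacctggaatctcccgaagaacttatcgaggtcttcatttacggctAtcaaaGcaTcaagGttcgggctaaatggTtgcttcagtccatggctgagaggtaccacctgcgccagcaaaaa

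Of 298 aligned columns, 286 matched (96.0%), with 3 gap columns and 9 substitutions. Counted from 1 at the first base of the start codon of Dppa5a, these were G9A, T30C, A65C, C119T, C224A, A230G, A233T, A238G and A253T. The copies had few reads assigned. Dppa5c reached at most 3.79 CPM in any of the 45 libraries and was above 0 in 14. A joined gene named Dppa5c_Dppa5b reached at most 2.87 CPM, and a gene antisense to Dppa5a reached at most 9.31 CPM. Dppa1, the remaining family member in the table, reached at most 2.30 CPM.

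All 5 genes rose from the progenitors to the stem cells in both kinds of library. In R10, 5 of 5 were called higher (limma, adjusted p under 0.05 and a log2 difference of at least 1), where 45.8% of the 15415 genes tested were called in either direction and 22.4% higher. In R9, 5 of 5 were called higher, where 36% of 15746 genes were called and 17.6% higher. All but Dppa5a in R10, and Dppa2, Dppa3 and Dppa4 in R9, met the filter only through the stem cells. The genes were also chosen as known markers of pluripotent cells, so these counts describe the choice and are no independent support. The members' median difference in R10 was 6.73 on the log2 scale, beside 0.01 over all genes tested. In these bulk libraries, fewer cells of a type and less RNA per cell cannot be told apart.

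Dppa5a had by far the highest read count of the 5. In the R10 stem cells it ranged from 6547 to 9984 CPM, with a median of 7886 (highest 8663 without the R1 library that lacks an n number). In the R10 progenitors it was 7.03 CPM in OKMS, 15.8 in OKS, and 12.4 and 12.1 in the wild type. The groups lay far apart, and the pooled progenitor reads of Dppa5a, 124, were the most of any member. The difference was 9.31 ± 0.17 (log2, SE; limma, adjusted p = 3.22e-15), and the ratio of pooled reads was 680.4 (95% interval 571 to 818, counting error only). The R9 difference was 10.04 ± 0.40 (limma, adjusted p = 2.98e-05), from 4.04 to 11.8 CPM in progenitors to 8261 CPM in O4G and 9586 CPM in R1.

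Dppa4 was 87.8 to 197 CPM in the 7 R10 stem cell libraries (median 126), and its lowest was 109 CPM without the R1 library that lacks an n number. It was 0.439 CPM, a single read, in the OKMS progenitors of R10 and 0 in the other 3. The difference was 6.89 ± 0.21 (log2, SE; limma, adjusted p = 5.65e-13). Its partner Dppa2 was 47.6 to 127 CPM in these stem cells (median 94.5) and 0 in all 4 progenitor libraries. Against the floor of 3 reads over the progenitor group, Dppa2 was at least 309.7-fold higher in the stem cells, and the fitted difference was 6.39 ± 0.25 (limma, adjusted p = 7.62e-12). In R9, both were at 0 in all 4 progenitor libraries, so that Dppa2 was at least 35.6-fold and Dppa4 at least 76.9-fold higher in the 2 stem cell libraries.

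Fbxo15 was 142 to 207 CPM in the R10 stem cells (median 163) and 0.287 to 0.879 CPM in the progenitors. The groups did not overlap, and the difference was 6.73 ± 0.15 (log2, SE; limma, adjusted p = 2.93e-14). Dppa3 ranged from 26.7 to 253 CPM in the R10 stem cells (median 69.0), the widest of the 5 relative to its level. It was 1.17 CPM, 2 reads, in the OKS progenitors and 0 in the other 3, and the difference was 5.84 ± 0.49 (limma, adjusted p = 4.18e-08). The stem cell minus progenitor difference was not called different between R10 and R9 for any of the 5 in limma's interaction test (adjusted p = 0.0984 for Dppa2, 0.213 to 0.382 for the other 4). That test had 695 of 18341 genes under an adjusted p of 0.05.

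Per length, Dppa5a and Dppa4 stood above the other 3 genes in the R10 stem cells, whereas in R9 only Dppa5a did. TPM summed over the transcripts of a gene was 1084 to 1826 for Dppa5a and 133 to 271 for Dppa4 in the R10 stem cells. These ranges did not overlap. A short transcript classed as noncoding, described below, held 54.8% to 72.2% of Dppa4 TPM by R10 stem cell library. The level of Dppa4 there thus came mostly from that transcript. Dppa2 (22.3 to 78.5 TPM), Fbxo15 (41.3 to 70.7 TPM) and Dppa3 (7.77 to 89.9 TPM) overlapped one another. Without the R1 library that lacks an n number, Dppa5a reached 1561 TPM, Dppa2 reached 68.7 TPM, and the lowest values were 168 TPM for Dppa4, 42.3 TPM for Fbxo15 and 13.7 TPM for Dppa3. In R9, Fbxo15 (69.7 and 101 TPM) overlapped Dppa3 (18.3 and 90.5 TPM). Dppa4 was lower in R9 than in R10 (65.2 and 67.9 TPM), below both Fbxo15 values and between those of Dppa3.

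Among the stem cell lines, Dppa3 had the widest log2 differences of the 5. In R10, Dppa3 was 26.7, 37.7 and 39.2 CPM in R1, 74.9 and 69.0 CPM in O4G, and 253 and 136 CPM in R1-Clone3. The 3 lines did not overlap, in the order R1, O4G, R1-Clone3. The largest difference between lines, 2.41 on the log2 scale, was not called with all 7 libraries (limma F test, adjusted p = 0.0818), where 0.0265% of 15081 genes were called. Without the R1 library that lacks an n number it was called (2.51, limma, adjusted p = 0.000157), although the 39.2 CPM of that library lay close to the other R1 libraries. The R9 libraries did not keep the order, with 263 CPM in R1 and 72.0 CPM in O4G. The largest differences between lines were 0.81 for Dppa2, 0.34 for Fbxo15, 0.21 for Dppa4 and 0.12 for Dppa5a (limma F test, adjusted p = 0.334 to 0.921).

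**Figure D1:**
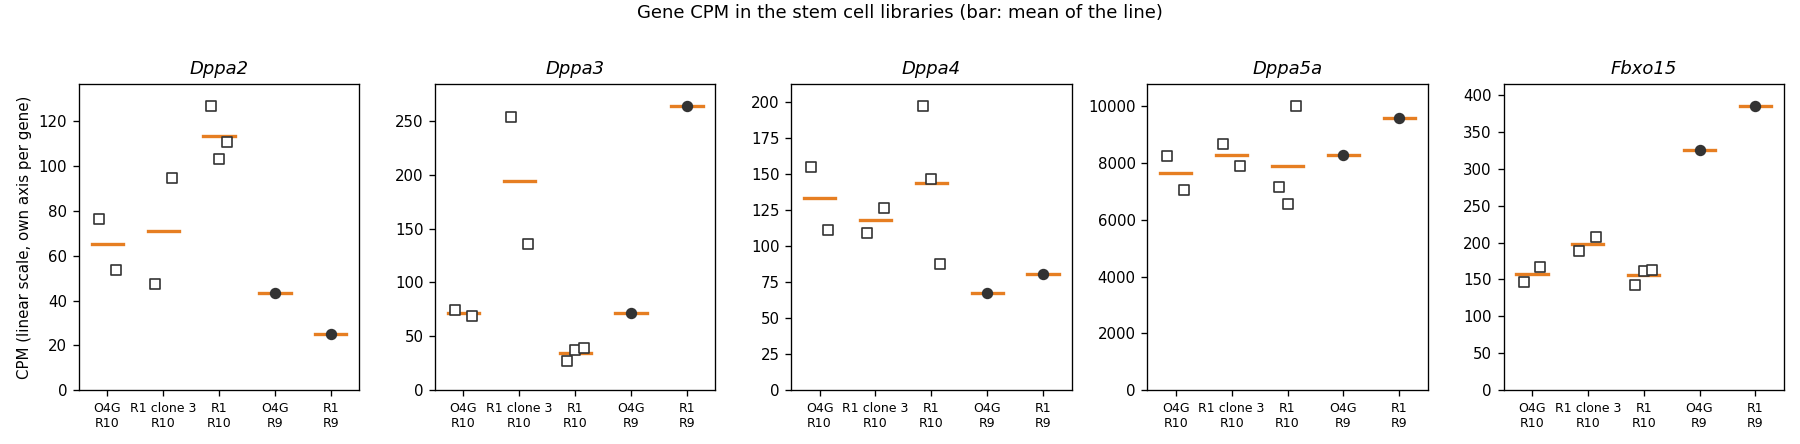
Gene CPM of the 5 genes in each stem cell library by line (linear axis, own scale per gene; open squares R10, filled circles R9; bar: mean of the line). Dppa3 ran from 26.7 CPM in an R1 library to 263 CPM in the R9 R1 library, whereas Dppa5a stayed between 6547 and 9984 CPM.

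The order in which the genes came on was read as the first sampled day in FBS-LIF with doxycycline on which CPM reached 10% of the stem cell mean of the same kind of library and stayed there. With 1 library per day and system the order is a description without a test, and the stem cells that set the level were in 2i-LIF. Fbxo15 was first in OKMS in both kinds of library, at day 4 in R9 and day 2 in R10. In R9 OKMS, Dppa2 and Dppa4 followed at day 6 and Dppa5a at day 10. In R10 OKMS, Dppa3 followed at day 6 and the other 3 at day 10. In R9 OKS, Dppa2 and Dppa4 reached the level at day 14, and Dppa3, Dppa5a and Fbxo15 at day 20. In R10 OKS all 5 did so at day 18, after a gap without libraries from day 6.

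In OKMS, Fbxo15 left its day 0 level before any Dppa gene. In R9 OKMS it was 0 CPM at day 0, 18.1 at day 2, 75.1 at day 4, 128 at day 6, 124 at day 10, 86.5 at day 14 and 119 at day 20. In R10 OKMS it was 0.879 CPM at day 0, 17.4 at day 2, 35.1 at day 4, 22.96 at day 6, 80.6 at day 10 and 46.0 at day 18. In R9 the level was near its height by day 6. In both series it stayed below the stem cells, which were in 2i-LIF, at most 36.2% of their mean in R9 and 47.9% in R10. In R9 OKS it was 1.69 CPM at day 0, 2.67 at day 2, 9.54 at day 4, 16.1 at day 6, 13.4 at day 10, 13.2 at day 14 and 50.3 at day 20. In R10 OKS it was 0.584, 3.73, 8.96 and 25.6 CPM at days 0, 2, 6 and 18. OKS thus reached 14.2% of the stem cell mean at day 20 in R9 and 15.2% at day 18 in R10.

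Dppa5a made the widest climb, later than Fbxo15. In R9 OKMS it was 4.04, 5.65 and 8.35 CPM at days 0, 2 and 4, then 577 at day 6, 4360.4 at day 10, 7543 at day 14 and 6369 at day 20. In R10 OKMS it was 7.03, 14.2 and 9.58 CPM at days 0, 2 and 4, then 102 at day 6, 5065 at day 10 and 14001 at day 18. The step between days 4 and 10 was seen in both kinds of library. In R9 OKS it was 11.8 CPM at day 0, at most 8.02 CPM on days 2 to 6, 37.9 at day 10, 421 at day 14 and 5019 at day 20. In R10 OKS it was 15.8, 7.46 and 8.96 CPM at days 0, 2 and 6 and 3843 at day 18.

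Dppa4 and Dppa2 climbed on the same days in R9 OKMS. Dppa4 in R9 OKMS was 0 CPM up to day 4, then 16.4 at day 6, 84.4 at day 10, 164 at day 14 and 234 at day 20. Dppa2 in R9 OKMS was 2.09 CPM at day 4, 4.09 at day 6, 22.5 at day 10, 59.1 at day 14 and 102 at day 20. In R9 OKS, Dppa4 was 2.23, 16.5 and 169.6 CPM and Dppa2 0, 4.96 and 30.9 CPM at days 10, 14 and 20. In R10 OKMS, Dppa4 was 6.18 CPM at day 6, 121 at day 10 and 151 at day 18, whereas Dppa2 was 2.65, 16.1 and 19.3 CPM. Against their stem cell means these were 91.0% for Dppa4 and 18.4% for Dppa2 at day 10, so the 2 genes came apart there. Dppa4 ended above the stem cell mean in every system and kind of library, at 114% to 316% of it. Dppa2 ended at 298% (OKMS) and 90.0% (OKS) in R9 and at 22.04% and 73.1% in R10, so its order between the systems was opposite in the 2 kinds of library.

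Dppa3 was high in the middle of the OKMS course. In R9 OKMS it was 0 CPM up to day 4, 69.6 at day 6, 98.5 at day 10, 44.3 at day 14 and 11.1 at day 20. In R10 OKMS it was 0 CPM at days 2 and 4, 9.72 at day 6, 185 at day 10 and 49.0 at day 18. The day 10 library was the highest of both series. At day 20 of R9 OKMS it was at 6.61% of the stem cell mean, so by the rule of staying at 10% it did not come on there, and 19 of 20 first days were reached in all. In R9 OKS it was 0 CPM through day 14 and 59.6 at day 20, and in R10 OKS it was 0.427 CPM at day 6 and 20.5 at day 18.

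**Figure D2:**
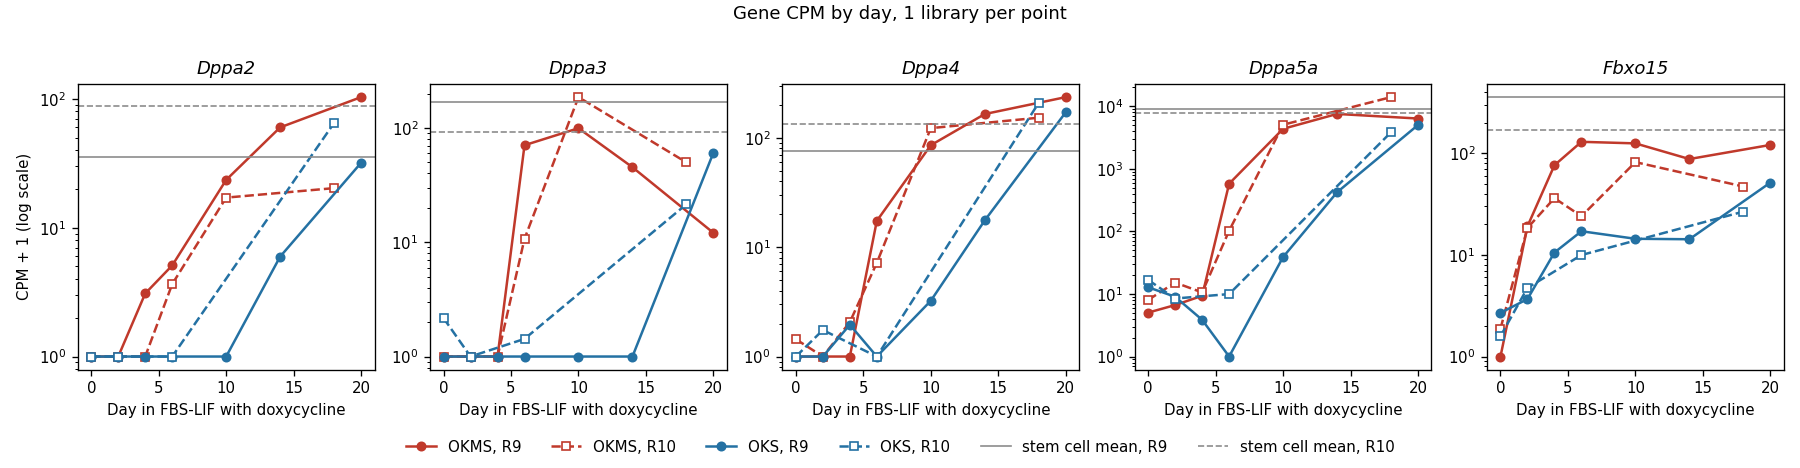
Gene CPM + 1 (log axis) against the day in FBS-LIF with doxycycline, day 0 being the progenitors of the same system; red OKMS, blue OKS, filled circles R9, open squares R10, grey lines the stem cell means. Each point is 1 library; Fbxo15 leaves the baseline at day 2 in OKMS and, at a lower level, in R10 OKS, and the Dppa genes of OKMS mostly at day 6.

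The order depended on the level chosen as the start. At 1% of the stem cell mean, Fbxo15 was first, at day 2, in OKMS of both kinds and in R10 OKS, and at day 4 in R9 OKS. Dppa4 then came at day 10 and Dppa2 and Dppa5a at day 14 in R9 OKS, but that day 10 value of Dppa4 is 1 read, below the floor of 3 reads. The day 6 start of Dppa2 in R9 OKMS, at 10% of the stem cell mean, rests on 3 reads. At 50% of the stem cell mean only 11 of 20 first days were reached, and Fbxo15 reached it in no series. Without the R1 library that lacks an n number, the first day of Dppa3 in R10 OKMS moved from day 6 to day 10.

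Over the R9 course, with the systems as an additive term, 4 of 5 genes were called as changed from day 0, where 10.7% of 19357 genes were called, 5.5% with a rise and 5.24% with a fall. The largest difference from day 0 lay at day 20 for each. It was 9.46 ± 2.00 for Dppa5a (limma F test, adjusted p = 0.0180), 7.65 ± 1.29 for Dppa4 (0.00873), 5.84 ± 1.06 for Dppa2 (0.0159) and 5.58 ± 0.88 for Fbxo15 (0.0140), all in log2 with the SE. Dppa3 was not called (4.76 ± 1.95, limma F test, adjusted p = 0.321). On the recovered reads it was called by edgeR (9.89, adjusted p = 2.47e-30) and not by DESeq2 (adjusted p = 0.943). In the R10 libraries Dppa2 was not called (5.18, limma, adjusted p = 0.056). Without the 2 libraries of day 20 all 4 lost their call (limma, adjusted p = 0.0501 to 0.186), and without day 14 Dppa5a lost it (adjusted p = 0.0505).

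With day held the same in R9, OKMS was above OKS for all 4 members tested, where 18% of 14277 genes were called and 6.93% higher in OKMS. Each system gave a single library per day, so the days stand in for repeats. The p-values of this contrast do not measure the spread between separate cultures of a system. Fbxo15 was higher in OKMS on 6 of 6 days, by 2.52 ± 0.26 (log2, SE; limma, adjusted p = 3.90e-04). Dppa5a differed by 3.55 ± 0.97 (limma, adjusted p = 0.0168), Dppa2 by 2.26 ± 0.54 (0.00868) and Dppa4 by 1.93 ± 0.68 (0.0490). Dppa3 was at 1 CPM or more in too few libraries to be tested. Leaving out day 6 or day 10 ended the calls of Dppa4 and Dppa5a, and leaving out day 14 that of Dppa4 (limma, adjusted p = 0.0548 to 0.164). Dppa4 also lost its call with a pseudocount of 0.25 (limma, adjusted p = 0.115), no filter (0.0822), a minimum of 5 CPM (0.0512) or DESeq2 (0.0623). Without day as a block none of the 4 was called (limma, adjusted p = 0.0694 to 0.418). The R10 days 2, 6 and 18 called none of the 4 (limma, adjusted p = 0.235 to 0.974, differences of 0.06 to 2.03, all higher in OKMS). Markers of other cell types differed between the systems in R9 too. Of the neural progenitor markers 3 of 6 tested were lower in OKMS (Fabp7, Olig2 and Sox9), as were 3 of 4 astrocyte markers (Aqp4, Gfap and S100b) and 3 of 7 mesenchymal markers (Acta2, Fn1 and Twist1), whereas the trophoblast markers Krt8 and Krt18 were higher. Over the 6 days the summed neural progenitor markers were 18.5 to 2285 CPM in OKMS and 48.9 to 4464 CPM in OKS. Summed mesenchymal markers were 165 to 1106 and 622 to 2832 CPM, astrocyte markers 3.69 to 162 and 5.75 to 290.1 CPM, and trophoblast markers 2.26 to 457 and 0.954 to 611 CPM. Their part in the differences of the 4 genes was not tested.

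At day 2 the factors were compared with wild-type cells in the same medium in R10. Fbxo15 was 17.4 CPM with OKMS and 3.73 with OKS, against 0.783 and 0 CPM in the wild type. These did not overlap, but the difference of 2.80 ± 0.75 was not called (limma, adjusted p = 0.127), where 0.74% of 15402 genes were called, 0.714% higher and 0.026% lower. With DESeq2 on the recovered reads it was called (4.73, adjusted p = 0.0486). Fbxo15 met the filter of both tests only through the factor libraries, which are of different systems, so that call is no support. Mitochondrial reads were 1.51% and 1.64% in the factor libraries and 0.319% and 0.165% in the wild-type libraries, and their part in this comparison was not tested. Dppa5a was not called (0.08 ± 0.58, limma, adjusted p = 0.964), and Dppa2, Dppa3 and Dppa4 were too low to test. Without factors, 2 days of FBS-LIF with doxycycline left Dppa5a at 8.22 and 11.5 CPM beside 12.4 and 12.1 CPM in wild-type progenitors (−0.30 ± 0.36, limma, adjusted p = 0.574), where 26.8% of 14688 genes were called, 11.9% lower.

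The media were compared in 5 pairs of the same system, day and kind of library. As described above, the media differ in serum, inhibitors and doxycycline, which induces the factors, so these cannot be told apart. Fbxo15 and Dppa2 were called higher in 2i-LIF, Dppa4 was lower in every pair with a fitted difference short of the log2 minimum, and Dppa3 and Dppa5a were not called. Of 14935 genes tested, 12.3% were called, 5.95% higher and 6.32% lower in 2i-LIF. The limma interaction with the system was not called for any member (adjusted p = 0.666 to 0.980), with 8 genes of 14935 under 0.05.

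Fbxo15 rose in 5 of 5 pairs, by 2.57-fold to 9.28-fold. In R9 it went from 86.5 to 369 CPM in OKMS at day 14, from 119 to 307 in OKMS at day 20 and from 50.3 to 384 in OKS at day 20. In R10 it went from 46.0 to 213 CPM in OKMS and from 25.6 to 238 in OKS at day 18. The media did not overlap, and the difference was 2.34 ± 0.22 (log2, SE; limma, adjusted p = 2.08e-06). In R9 the 2i-LIF libraries lay at 86.7% to 108% of the stem cell mean of the same kind.

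Dppa2 was higher in 2i-LIF in 4 of 5 pairs. In R9 it went from 59.1 to 119.7 CPM in OKMS at day 14, from 102 to 96.7 in OKMS at day 20 and from 30.9 to 102 in OKS at day 20. In R10 it went from 19.3 to 97.0 CPM in OKMS and from 64.0 to 308 in OKS. The difference was 1.43 ± 0.28 (log2, SE; limma, adjusted p = 0.00187), and the media overlapped through the OKMS pair of day 20. With the 3 R9 pairs alone it was 0.87 and not called (limma, adjusted p = 0.1).

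Dppa4, the partner of Dppa2, went the other way. In R9 it went from 164 to 94.0 CPM in OKMS at day 14, from 234 to 74.2 in OKMS at day 20 and from 169.6 to 69.8 in OKS at day 20. In R10 it went from 151 to 139 CPM in OKMS and from 207 to 120.4 in OKS. It was lower in 5 of 5 pairs and the media did not overlap. The difference of −0.92 ± 0.20 passed the p threshold (limma, adjusted p = 0.00454) and not the log2 minimum of 1. In the R9 pairs alone it was −1.23 and called (limma, adjusted p = 0.00488), as it was without the R10 OKMS pair (−1.12, adjusted p = 0.00146).

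Dppa5a was 3843 to 14001 CPM in FBS-LIF with doxycycline and 5608 to 11955 CPM in 2i-LIF, higher in 4 of 5 pairs (0.30 ± 0.20, limma, adjusted p = 0.363). The one wide step was in the R10 OKS pair, from 3843 to 9493 CPM. Dppa3 went up in 3 pairs and down in 2, between 0.468-fold and 2.90-fold (0.10 ± 0.33, limma, adjusted p = 0.886). Its sign turned without the R10 OKS pair (−0.24) or the R9 OKMS pair of day 20 (−0.04).

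**Figure D3:**
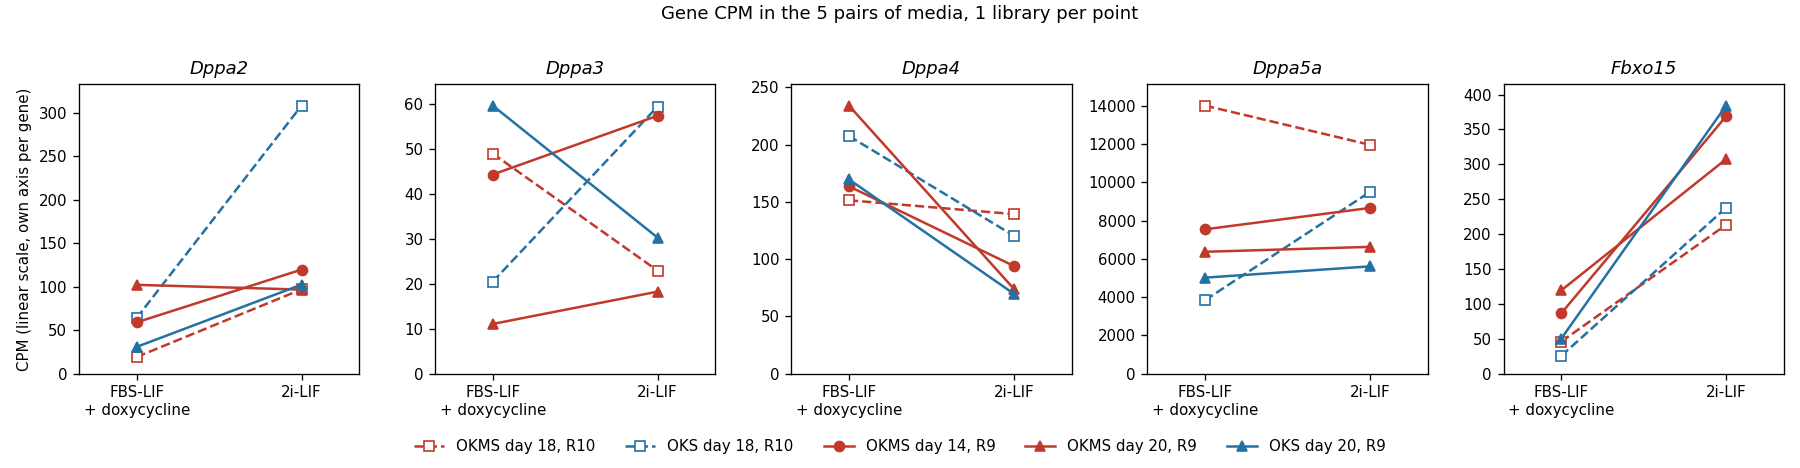
Gene CPM (linear axis, own scale per gene) in the 5 pairs of FBS-LIF with doxycycline and 2i-LIF, a line per pair; red OKMS, blue OKS, filled R9, open R10. All 5 lines rise for Fbxo15 and all 5 fall for Dppa4, whereas Dppa3 lines cross.

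Markers of other cell types differed between the media as well. Summed trophoblast markers (Hand1, Krt8 and Krt18, the 3 of 6 listed that are in the table) were 163 to 611 CPM in the 5 paired FBS-LIF libraries and 9.67 to 31.7 CPM in 2i-LIF. Summed formative or primed epiblast markers (5 of 6 in the table) were 40.1 to 375 and 23.2 to 58.2 CPM, and primordial germ cell markers (5 genes) were 38.8 to 111 and 144 to 400.4 CPM. Neural progenitor markers overlapped, at 18.5 to 58.9 and 7.05 to 59.4 CPM, as did mesenchymal markers, at 165 to 719 and 205 to 335 CPM. Summed primitive endoderm markers (4 of 5 in the table) were 12.2 to 39.4 and 4.30 to 14.1 CPM. Single markers called lower in 2i-LIF were 3 of 3 for trophoblast, 2 of 3 for primitive endoderm (Dab2 and Gata6), 2 of 6 mesenchymal (Acta2 and Twist1), 1 of 4 neural (Pax6) and 2 of 4 epiblast (Dnmt3b and Pou3f1), and the germ cell marker Dazl (1 of 5) and the oocyte marker Zp3 (1 of 1) were higher. These sums do not show that such cells were present, and germ cell markers were 136 to 168 CPM in the R10 stem cells too. The part of other cell types in the differences of the 5 genes was not tested.

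The R10 stem cells were in 2i-LIF, so medium and cell state cannot be told apart when FBS-LIF libraries are set against them. In that comparison the day 18 libraries in FBS-LIF with doxycycline differed in Fbxo15. It was 46.0 CPM in OKMS and 25.6 in OKS, below all 7 stem cell libraries, and fell short by 2.25 ± 0.22 on the log2 scale (−2.25, limma, adjusted p = 2.86e-05). It was the 1 member called, where 22.2% of 16254 genes were called and 11.8% lower. With the O4G stem cells alone (−2.16, limma, adjusted p = 0.0576) or in R9 (−2.75, adjusted p = 0.128) it was not called. In the same R10 contrast all 3 trophoblast markers were called higher at day 18, with 3 of 5 neural progenitor markers (Nes, Pax6 and Sox9), 3 of 6 mesenchymal markers (Acta2, Thy1 and Twist1) and 2 of 3 primitive endoderm markers (Dab2 and Gata6). Summed trophoblast markers were 224 and 261 CPM at day 18 and 24.7 to 65.1 CPM in the stem cells. Neural progenitor markers were 22.3 and 58.9 against 5.45 to 38.8 CPM, mesenchymal markers 237 and 566 against 181 to 330 CPM, and primitive endoderm markers 20.5 and 34.1 against 1.12 to 10.5 CPM. Primordial germ cell markers were lower at day 18 (41.0 and 111 against 136 to 168 CPM), as were oocyte markers (3.84 and 5.94 against 12.5 to 25.8 CPM). The stem cell ends of 38.8, 330, 1.12 and 25.8 CPM came from the R1 library that lacks an n number. The medians there were 10.1, 226, 7.17 and 17.0 CPM. The part of all these markers in the shortfall of Fbxo15 was not tested. Dppa4 (0.45 ± 0.26), Dppa2 (−1.21 ± 0.43) and Dppa3 (−1.09 ± 0.67) were not called (limma, adjusted p = 0.0528 to 0.25). Dppa2 was called lower without the O4G library n2 (−1.31, limma, adjusted p = 0.0458) or the R1-Clone3 library n1 (−1.34, limma, adjusted p = 0.0334). Without the OKS library, which leaves a single day 18 library, the difference of Dppa2 was −2.05. Dppa5a (−0.10 ± 0.37, limma, adjusted p = 0.872) joined 14001 CPM in OKMS, above every stem cell library, with 3843 CPM in OKS, below every one. Its difference was 0.83 without the OKS library and −1.03 without the OKMS library, each time with a single day 18 library left.

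In 2i-LIF at day 18, none of the 5 was called against the R10 stem cells, where 9.06% of 15880 genes were called, 4.28% higher and 4.77% lower. At an unadjusted p, 3 of 5 were under 0.05 in limma, and edgeR and DESeq2 called none. Fbxo15 was 213 and 238 CPM, just above the highest stem cell library at 207 CPM (0.43 ± 0.16, limma, adjusted p = 0.101). Dppa2 was 97.0 CPM in OKMS, within the stem cell range, and 308 in OKS, above it (1.05 ± 0.41, limma, adjusted p = 0.108). Without the OKMS library, which leaves a single 2i-LIF library, the difference of Dppa2 was 1.88. In R9 Dppa2 was called in the same direction (1.65, limma, adjusted p = 0.00591). Dppa4 lay within the stem cell range (0.00 ± 0.25, limma, adjusted p = 0.996).

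The 106 deposited transcripts of the 5 genes comprised 47 of Dppa5a, 25 of Dppa4, 20 of Fbxo15, 8 of Dppa2 and 6 of Dppa3. Of 54 tested in R10 stem cells against progenitors, 49 were called, where 39.8% of 58952 transcripts were called. Nearly all of the 54 had a mean of 0 TPM in the progenitors and met the filter only through the stem cells. A call higher in the stem cells was thus close to fixed in advance, and this count is no support. None of 52 tested was called between the media by limma, where 1.84% of 38362 were called, and 11 of 52 were under an unadjusted p of 0.05. Shares of TPM within a gene are described without a test, and names are the deposited numbers.

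In the stem cells of both kinds of library, most Dppa5a TPM lay in a transcript that the annotation lacks. At day 18 in FBS-LIF with doxycycline in R10 its share was 47.6%. The R10 stem cell median was 1255 TPM beside 7886 CPM for the gene. How much of the gene's reads the transcripts cover is not stated, so the shares are of TPM only. Transcript 132 has 4 exons, of which the first (chr9:78388209-78388320, − strand, 112 bases) begins 20143 bases upstream of the annotated start, beyond Ooep. Its other exons contain the whole coding sequence of 357 bases for 118 residues, so it differs ahead of the start codon. It held 76.5% of Dppa5a TPM in the R10 stem cells (69.9% to 81.6% by library, and at least 74.3% without the R1 library that lacks an n number) and 59.8% in R9. Transcript 112, the annotated 3-exon form, held 5.40% in R10 and 3.38% in R9. Transcript 177 begins 16469 bases upstream and held 2.49% in R10 and 7.52% in R9.

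The 3 of 47 transcripts that begin more than 1000 bases upstream held 79.0% of Dppa5a TPM in the R10 stem cells and 67.5% in R9. By library this was 71.0% (the R1 library without an n number) to 83.9% in the R10 stem cells, and at least 77.8% in the other 6. In R10 at day 18 it was 52.4% in OKMS and 79.4% in OKS in FBS-LIF with doxycycline, and 83.2% and 81.1% in 2i-LIF. In R9 it was 53.3% to 67.6% in FBS-LIF with doxycycline at days 14 and 20, and 73.4% to 81.7% in 2i-LIF, so that the R9 media did not overlap. In OKMS at day 6, with Dppa5a at 121 TPM in R9 and 25.5 TPM in R10, the share was already 79.1% and 87.8%. Transcript 132 itself was 1487 ± 155 TPM in 2i-LIF and 865 ± 401 TPM in FBS-LIF (SD, n = 5 each) and was not called between them (0.91, limma, adjusted p = 0.0636).

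**Figure D4:**
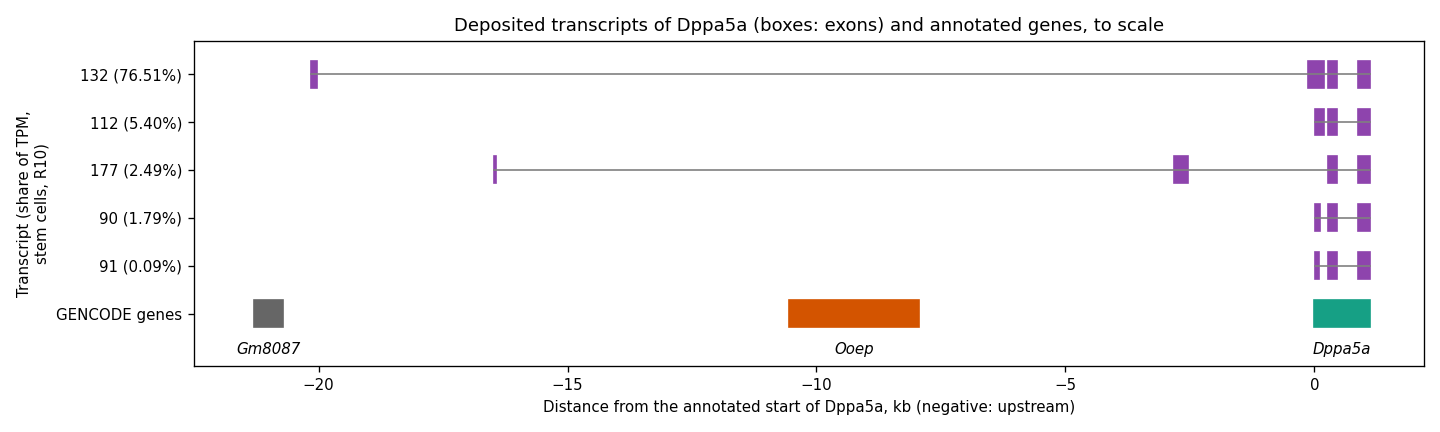
Exons (boxes) of 5 deposited Dppa5a transcripts and the annotated genes around them, drawn to scale against the distance from the annotated start in kb, upstream to the left. Transcripts 132 and 177 begin on the far side of Ooep, and the share of R10 stem cell TPM stands beside each name.

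Transcripts 90 and 91 set the OKMS day 18 library in FBS-LIF apart. They have 3 exons, are 521 and 495 bases long, and held 1.79% and 0.09% of Dppa5a TPM in the R10 stem cells. In OKMS at day 18 they held 32.1% and 6.69%, and in OKS 2.41% and 0%. In the paired 2i-LIF libraries transcript 90 held at most 5.57%. This is the library with the highest Dppa5a level of all 45.

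By TPM, the leading transcripts of Dppa3 and Dppa4 in the R10 stem cells were short and are classed as noncoding in the deposited table. TPM divides reads by transcript length, so a short transcript holds a larger share of TPM than of reads. Which transcript led by reads was not tested. In R9 coding transcripts led for Dppa3 in both stem cell libraries, and for Dppa4 in 1 of 2. For Dppa4, transcript 1 (2 exons, 259 bases) held 63.0% of TPM in the R10 stem cells, 76.7% in FBS-LIF and 70.8% in 2i-LIF at day 18, but 24.4% in the R9 stem cells. Transcript 15 (7 exons, 1484 bases, 891 coding bases) held 10.2% in R10 and 28.8% in R9. By R9 library, transcripts 1 and 15 held 24.8% and 23.8% in O4G and 24.0% and 33.6% in R1. For Dppa3, transcript 6 (2 exons, 225 bases) held 48.6% in the R10 stem cells, 74.7% in FBS-LIF and 86.8% in 2i-LIF at day 18, and 17.3% in R9. The coding 4-exon transcripts 11 and 14 held 20.98% and 18.2% of Dppa3 TPM in the R10 stem cells and 41.5% and 22.8% in R9.

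Dppa2 TPM was spread over 3 coding transcripts of the same 906 coding bases with different starts. Transcripts 25, 5 and 58 held 39.2%, 28.5% and 26.5% in the R10 stem cells and 52.8%, 19.2% and 23.5% in R9. Fbxo15 differed most between the kinds of library. Transcript 24 (10 exons, 2083 bases, 1437 coding bases) held 55.4% in the R10 stem cells and 24.9% in R9, and transcript 88 (7 exons, 1164 bases) held 3.15% and 50.8%. Within R10, the R1 library without an n number had 13.9% in transcript 88 and 1.63% in transcript 5, a fragment of 4 exons, whereas transcript 5 held up to 33.7% in the other 6.

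**Figure D5:**
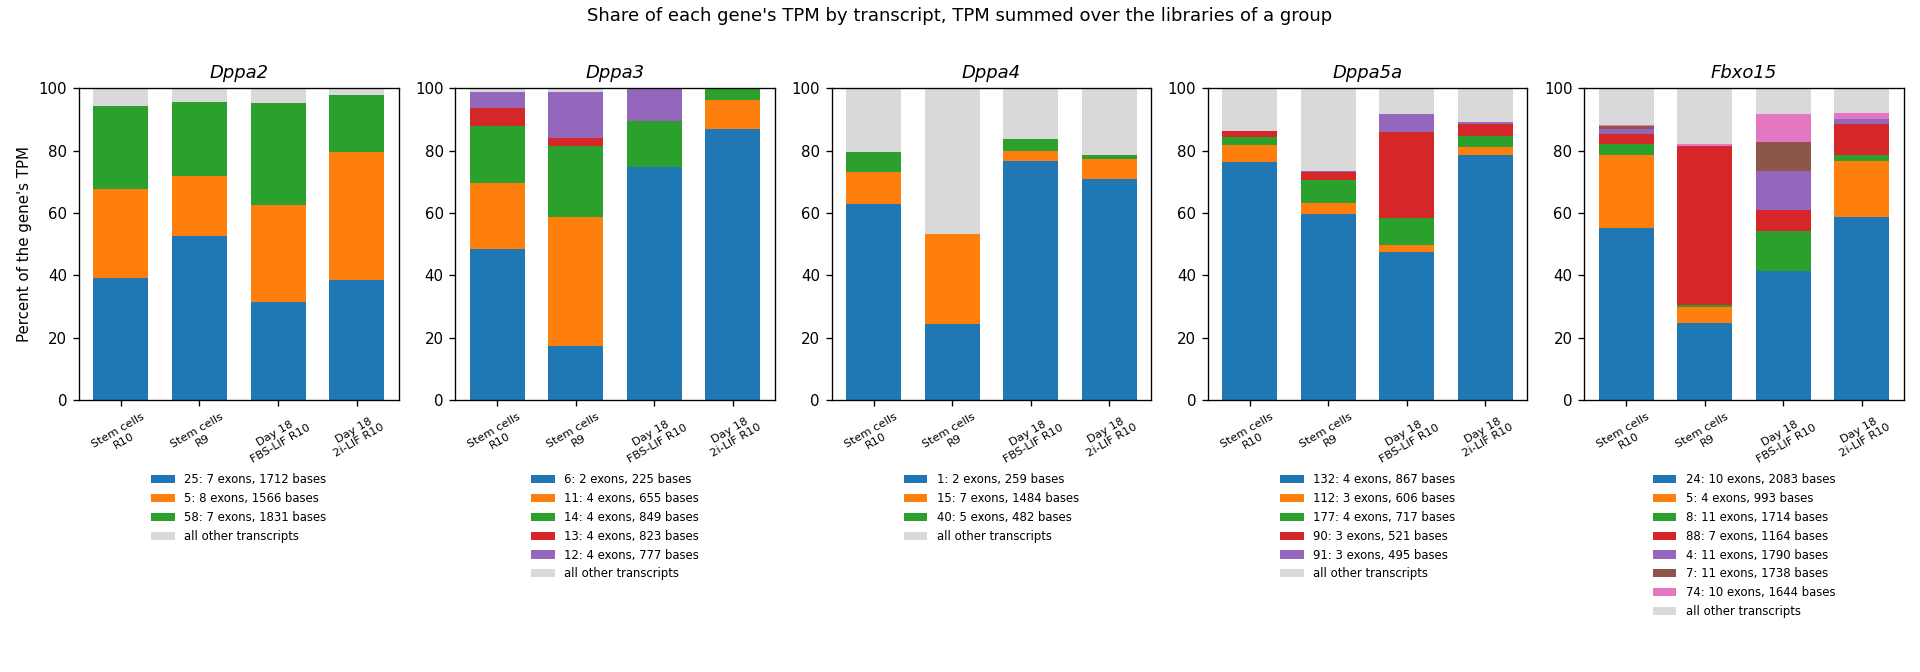
Percent of the TPM of each gene by transcript in the R10 and R9 stem cells and in the R10 day 18 libraries in both media, TPM summed over the libraries of a group (numbers: deposited transcript, exons and length; grey: all others). Short transcripts 1 of Dppa4 and 6 of Dppa3 fill 63.0% and 48.6% of the R10 stem cell bars, against 24.4% and 17.3% in R9.

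At gene level the stem cells of the 2 kinds did not overlap for Dppa2 (25.1 and 43.6 CPM in R9, 47.6 to 127 in R10) or Fbxo15 (325 and 384 CPM in R9, 142 to 207 in R10). Over conditions present in both, Fbxo15 was lower in R10 by a log2 difference of −0.59 ± 0.20 (limma, adjusted p = 0.0179), short of the minimum of 1. Dppa4 (0.18, limma, adjusted p = 0.499) and Dppa5a (0.34, adjusted p = 0.268) were not called, where 12.1% of 14235 genes were called, 6.36% higher and 5.73% lower in R10, and Dppa2 and Dppa3 were not tested.

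Across libraries, Dppa4 and Dppa5a had the most alike patterns among the 5. Likeness was the smaller of Pearson's r over the 22 R9 and over the 23 R10 libraries, among 16975 genes. These libraries share depth and stage, so it is a description only. It was 0.973 for Dppa4 with Dppa5a, 0.951 for Dppa2 with Dppa5a and 0.948 for Dppa2 with Dppa4. Fbxo15 was the least alike, at 0.800 with Dppa4 to 0.858 with Dppa2. The genes most like Dppa2 were Nodal (0.980), Zfp42 (0.979) and Rpl39l (0.973). Platr10 and Tdgf1 led for both Dppa4 (0.979 and 0.977) and Dppa5a (0.978 and 0.977), followed by Chmp4c for Dppa5a (0.974). Dppa3 was most like Cyba (0.948), Ly6g6e (0.941) and Cldn4 (0.938), and Ddc (0.948) and Gdf3 (0.941) were among the genes most like Fbxo15.

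Other genes of the pathways around the 5 gave the following counts. Of 18 pluripotency factors, 18 rose from progenitors to stem cells in R10, where 22.4% of all genes tested were called higher, led by Nanog (9.12 ± 0.24) and Zfp42 (8.87 ± 0.14) on the log2 scale (limma, adjusted p = 9.25e-14 and 6.60e-16). Their median was 6.09, beside 0.01 over all genes. The list holds genes known from pluripotent cells, so this count and median describe the choice and are no independent support. In 2i-LIF against FBS-LIF with doxycycline, 10 of 18 rose, 3 (Lin28a and Utf1 among them) fell and 5 were not called, beside 5.95% higher and 6.32% lower over all genes, with a median of 1.14 beside −0.03. Between OKMS and OKS in R9, 7 of 17 tested were higher in OKMS and none lower, beside 6.93% and 11% of all genes.

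Of 16 genes listed for the link of Dppa2 and Dppa4 to the 2-cell embryo, 9 are in the table. The 3 tested in R10 stem cells against progenitors rose (22.4% of all genes did). They were Smarca5, Zscan4c and Eif4a3l1 (2.82 ± 0.31, limma, adjusted p = 1.04e-06), a member of a translation factor family. The rest were too low to test. A gene near 0 in the progenitors could meet the filter only through the stem cells, so this count is no support. In R9 only 1 of the 9, Smarca5, could be tested, and it was not called by limma, although its unadjusted p was under 0.05. Between the media, 3 of 9 were higher in 2i-LIF (Eif4a3l1, Usp17lb and Zscan4c), beside 5.95% of all genes. Against the R10 stem cells, 6 of 7 tested were higher in 2i-LIF at day 18, beside 4.28% of all genes. The 7 had a median of 2.60 beside −0.09 over all genes, and Eif4a3l1 was 86.5 CPM in 2i-LIF and 6.68 CPM in the stem cells. A single read was 1.76 CPM in the OKMS and 1.56 CPM in the OKS library in 2i-LIF. A gene near 0 in the stem cells could thus meet the filter through these libraries alone. Zscan4a, Zscan4d, Zscan4e and Usp17lb, all called higher, were too low to test in R10 stem cells against progenitors. Between the media, a gene near 0 in FBS-LIF could likewise meet it through 2i-LIF, so neither count is support. Near-identical copies within the Zscan4 and Usp17 families make their single members uncertain.

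Of 10 DNA methylation genes listed beside Dppa3, Uhrf1 rose in 2i-LIF against FBS-LIF (1.16, limma, adjusted p = 3.56e-04), 3 fell and 6 were not called. Those that fell were the de novo methyltransferases Dnmt3a (−1.65) and Dnmt3b (−2.23) and their cofactor Dnmt3l (−5.76, limma, adjusted p = 5.56e-08), which went from a mean of 144 to 1.65 CPM. Over all genes, 5.95% were higher and 6.32% lower between the media. From progenitors to stem cells in R10, where 22.4% of all genes were called higher and 23.5% lower, Dnmt3b, Dnmt3l, Tet1, Tet2 and Uhrf1 rose, Dnmt3a and Tet3 fell and 3 were not called. In R9 the 5 that rose were called as well, and the other 5 were not called. Of the KH domain relatives of Dppa5a and their complex, 4 of 9 were tested in R10 stem cells against progenitors. Ooep (7.35 ± 0.28, limma, adjusted p = 5.26e-12) and Khdc3 rose, and Tle6 (−4.47 ± 0.24, adjusted p = 1.96e-10) and Zbed3 fell. In R9 Ooep and Khdc3 rose, Tle6 fell and Zbed3 was not called. None of the 6 SCF ligase partners of Fbxo15 tested, which include Cul1 and Rbx1, was called by limma in stem cells against progenitors or between the media, with 3 and 0 under an unadjusted p of 0.05. edgeR and DESeq2 were not run on this list.

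Among chromosome neighbours, 6 of 13 rose and 2 fell from progenitors to stem cells in R10, where 22.4% of all genes tested were called higher and 23.5% lower. In 2i-LIF against FBS-LIF with doxycycline, 5 of 12 rose and 1 fell, beside 5.95% and 6.32% of all genes. These counts leave out Khdc3, which was listed with them but lies far from Dppa5a (chr9:73101836-73104438), and they include Nanog, Gdf3 and Ooep of the lists above. Morc1, beside Dppa2, rose in both (8.07 ± 0.17 and 1.82 ± 0.24; limma, adjusted p = 1.56e-14 and 7.00e-05). Ooep, inside the long first intron of Dppa5a transcript 132, rose in both as well (1.27 ± 0.18 between the media; limma, adjusted p = 1.05e-04). Fbxo15 (chr18:84934782-84981473, + strand) holds Timm21, a mitochondrial import gene, within its span on the opposite strand. Whether the counting used strand is not stated, so their reads may not be fully separated. Timm21 fell in both (−1.93 and −2.76), from a mean of 63.4 to 8.94 CPM between the media (limma, adjusted p = 9.18e-06). Fbxo15 rose where Timm21 fell.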

How the data were processed

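Gene CPM and transcript TPM were deposited by the authors; minimap2 2.24-r1122 and mm10 are named in the submitters' processing notes, and the counting settings are not given in the sources used here. Exon positions came from the deposited annotation, and lengths and coding status from a deposited table laid out like SQANTI3 output (per the file headers). Every CPM value above 0 was a whole number of reads within 0.02 reads (100% of values), which gave the depth and the reads for the count models. A further 13 columns of the gene table matched no sample and were left out, and 20 gene names had been turned into numbers.

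log2(CPM + 1), or log2(TPM + 1), was fitted over all genes or transcripts in R 4.3.3 with limma 3.58.1 (moderated with a mean trend), two-sided, with Benjamini-Hochberg adjustment over all features tested. A feature needed at least 1 CPM or TPM in as many libraries as the smaller arm (transcripts: in 4 and 5 libraries; time course: in 2). Calls needed an adjusted p under 0.05 and a log2 difference of 1 or more in size. Media were compared with the pair as a block, and OKMS and OKS with day as a block. Alternatives were other pseudocounts and filters, quantile normalization, count models on the recovered reads (edgeR 4.0.16 and DESeq2 1.42.0), different arms or blocks, and leaving out each library, day or pair. The fits were tested on simulated data. Sequences and positions came from GENCODE M21. The members and gene lists were chosen with earlier results of these data known. Named genes are the 5 members, the 3 most like each, the 2 list members of largest called difference between R10 stem cells and progenitors, and transcripts with at least 5% of a gene's TPM in R10 stem cells or late FBS-LIF cultures; other list genes were named after their values were seen. Some genes that these rules pick are not reported here.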

Additional observations from a re-analysis of the deposited data

Results flagged for a closer look

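In 11 groups of 4 to 10 libraries, the highest and lowest library were compared with the others by Dixon's test and 2 passed the critical value. The usual rate of about 1 in 20 by chance does not hold for these 2, since 3 libraries tied at 0 give the full gap whatever the 4th value is. Dppa3 in the R10 progenitors was 1.17 CPM in the OKS library (2 reads) and 0 in the other 3, a gap of 1 of the whole range against a critical value of 0.829. Dppa4 in the same group was 0.439 CPM in the OKMS library (1 read) and 0 in the other 3. Both rest on 1 or 2 reads.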

How the results depend on the processing

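The rise of all 5 genes from progenitors to stem cells kept 5 of 5 calls under every alternative tried in R10 and R9, and 608 of 670 alternative member tests kept direction and side of the threshold. The tests of that rise are among the 670. Their outcome was close to fixed by the choice of the genes and by the filter, so they are no independent support. A DESeq2 test without an adjusted p was counted as kept when its direction was not compared. The number of members called over the R9 course was 4 and ranged from 0 to 4 when a day was left out. It was 5 with edgeR, which added Dppa3, and 3 in the R10 libraries. For OKMS against OKS it was 4, and 2 to 4 when a day was left out. It was 2 at a minimum of 5 CPM, 1 with days 10, 14 and 20 only, 1 with days 2, 4 and 6 only, 0 with the R10 days and 0 with no day block. For late FBS-LIF against stem cells it was 1, and 1 to 2 with a stem cell library left out, 0 in R9 and 0 with the O4G stem cells only. For 2i-LIF against stem cells it was 0, 0 with a stem cell library left out and 1 in R9. Counts with a day 18 library left out are not given for these 2 contrasts, since a single library remains in that group. DESeq2 called 1 member for the factors at day 2, Fbxo15, which met the filter only through the factor libraries. Between stem cell lines DESeq2 called 1 member (Dppa3), and the count was 0 to 1 with a library left out. With a minimum of 5 TPM, 24 member transcripts were called between stem cells and progenitors in place of 49. At 50% of the stem cell mean 11 of 20 first days were reached. Of 68 first days reached under both rules, 43 stayed and 25 moved, and a further 8 were lost and 2 gained.

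Signs turned for small differences that were not called, and the cause was not tested. Dppa3 between the media was −0.24 to 0.39 with a pair left out, below 0 without the R10 OKS pair or the R9 OKMS pair of day 20 (−0.04). Dppa5a in late FBS-LIF against stem cells was 0.17 with edgeR, 0.27 with DESeq2 and −1.03 (without the OKMS library) to 0.83 (without the OKS library). Dppa4 in 2i-LIF against stem cells was −0.11 with edgeR, −0.020 with O4G stem cells only, and −0.10 to 0.11 with a library left out. In R9 the same contrast gave −0.38 for Dppa5a and −0.0061 for Fbxo15. Dppa5a for the factors at day 2 was −0.13 with quantile normalization, −0.043 with edgeR, −0.025 with DESeq2 and −0.34 to 0.50 with a library left out.

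Replicate numbers are shared by wild-type progenitors in and out of FBS-LIF (same-number correlation of deviations 0.47, 2 pairs) and by the numbered stem cell libraries (0.07 to 0.16). With 2 numbers a set, and stem cell correlations partly under 0.1, the numbers were not taken to pair the samples. With a replicate block the first contrast kept 0 calls (Dppa5a −0.30, limma, adjusted p = 0.528), and the second, on the 6 numbered libraries, called 1 member, Dppa3 (2.51, limma, adjusted p = 1.16e-11). The other 4 had adjusted p = 2.39e-06 to 0.00383 there, with differences of 0.27 to 0.82, under the minimum of 1. With replicate and line both fitted to 6 libraries, little was left to measure the spread. With all 7 libraries and no block these 4 had adjusted p = 0.334 to 0.921 (limma F test).

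Depth limits the low end: 1 read was 0.236 to 2.23 CPM, so absence in early libraries is not shown. Each induced system and day is 1 library, and the late R10 comparisons set 2 libraries against 7 of stem cells.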
